A study of Homo sapiens with 6 samples.

Results

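The cytosolic ribosomal protein genes encode the protein part of the ribosome in the cytoplasm. They were followed here in PC9/GR cells, a human lung cancer cell line, after knockdown of the antisense RNA MYLK-AS1. A gene was a member when its symbol had the form of a ribosomal protein of the small (RPS) or large (RPL) subunit, or was RPLP0, RPLP1, RPLP2 or RPSA, and when its mean over the 6 libraries was at least 1 CPM, a read count scaled by library size. Of 54261 deposited symbols, 77 had such a name and 76 were members, 30 of the small and 46 of the large subunit. The members were thus chosen by their name and selected on their mean level over all libraries, so the levels below are descriptions and not findings.

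The groups were 3 libraries of PC9/GR cells given si-MYLK-AS1 and 3 libraries of PC9/GR cells given si-NC, the control siRNA. Both groups are the same cell line, total RNA was sequenced as Ion Proton libraries, and the labels name no other treatment. No source used here gives the siRNA sequences, the dose or the harvest time, and all 3 knockdown libraries carry the same targeting label. The labels do not say whether the replicates were separate cultures, so p-values measure the spread between these libraries, which may be technical. In bulk RNA a change in each cell and a change in the mix of cells cannot be told apart.

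Each ribosome takes up about equal numbers of most of these proteins, and their messages are among the most abundant of a growing cell. Most of the messages begin with a C followed by a run of pyrimidines, the 5′ terminal oligopyrimidine (TOP) tract, through which the kinase mTORC1 and the protein LARP1 control their translation together. Ribosomal protein messages have also been copied back into the genome many times, which left processed pseudogenes, intron-free copies that resemble the message closely. Free ribosomal proteins are degraded, and the 5S particle of RPL5 and RPL11 can bind the ubiquitin ligase MDM2 when ribosome assembly is disturbed.

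Total counts were 7551303 to 11055408 in si-MYLK-AS1 libraries and 8867818 to 10978513 in si-NC libraries. MYLK-AS1 itself had 0, 5 and 4 reads in si-MYLK-AS1 libraries, against 20, 16 and 19 reads in si-NC libraries (log2 fold change -2.43, edgeR adjusted p = 0.00326). All 6 epithelial markers on the list were tested; of these KRT18, KRT8, KRT7, CDH1 and EPCAM were lower and KRT19 was higher in the knockdown, with KRT18 at 2475 CPM in si-MYLK-AS1 libraries and 4255 CPM in si-NC libraries. EGFR, the receptor for which PC9 is known, had only 3.00 to 3.98 CPM in si-MYLK-AS1 libraries and 1.56 to 3.11 CPM in si-NC libraries. Of the lung markers SFTPB had 0 reads in every library and NKX2-1 at most 10, so these 2 did not mark the libraries as lung. Of the blood markers PTPRC and CD3E had 0 reads, and CD14 was lower, at 21.6 CPM in si-MYLK-AS1 libraries and 35.3 CPM in si-NC libraries. The endothelial markers had at most 7 reads a library. Among fibroblast markers COL1A1 had 26.1 CPM in si-MYLK-AS1 libraries and 23.7 CPM in si-NC libraries, COL1A2 had 0 reads, PDGFRB had 11, 7 and 12 reads in si-MYLK-AS1 libraries and 1, 2 and 0 in si-NC libraries and was not tested, and LUM was higher, at 3.45 CPM in si-MYLK-AS1 libraries and 0.482 CPM in si-NC libraries. The part of such genes in the results below was not tested.

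Of the 76 members 24 were higher, 4 were lower and 48 did not pass an adjusted p of 0.05 in edgeR's quasi-likelihood test, adjusted over all 15391 genes tested. Over all tested genes 21.3% were called higher and 20.7% lower, so 31.6% of the members were called higher and 5.26% lower against that background. In either direction 36.8% of members and 42.0% of all tested genes were called. The log2 fold change was above 0 for 50 of the 76 members and for 49.9% of all tested genes. The median log2 fold change was 0.17 over the members and -0.0005 over all tested genes. The spread was narrower too, with an SD of the log2 fold changes of 0.33 among members and 0.71 among all genes. No member changed by 2-fold or more, whereas 11.5% of all tested genes were called at that size. Neither comparison was matched for expression level. All 76 members passed the filter on low counts. Without si-NC replicate 1 the count of members called higher was 13, or 17.1%, where 17.2% of all genes tested were called higher, so their excess over the background was absent there. The count of members called lower was 1 without si-MYLK-AS1 replicate 2, 2 without si-MYLK-AS1 replicate 3 and 2 without si-NC replicate 2.

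**Figure D1:**
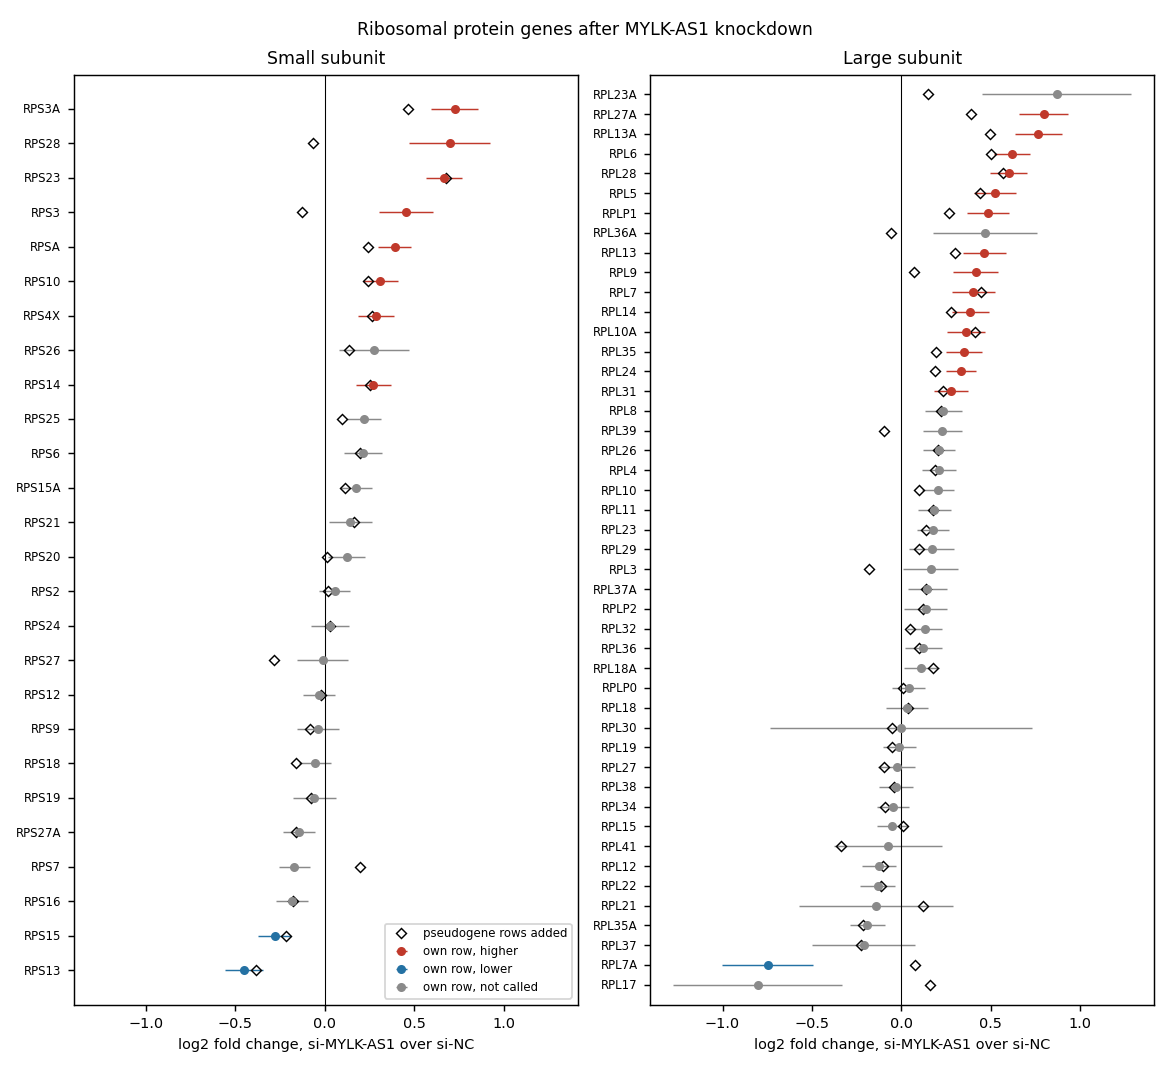
Log2 fold change of each member, si-MYLK-AS1 over si-NC, by subunit, for the members reported here. Filled points with bars are the gene's own row with its SE, coloured by call, and open diamonds are the estimate after the gene's pseudogene rows were added. Most points lie between -0.5 and 0.8, and the diamonds of RPL7A, RPL17, RPS28 and RPS3 are among those on the other side of 0 from their filled points.

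The members were also counted by subunit, and the difference between the subunits was not tested. In the small subunit 10 of 30 members were higher and 3 lower (33.3% and 10%), with a median log2 fold change of 0.13. In the large subunit 14 of 46 were higher and 1 lower (30.4% and 2.17%), with a median of 0.17. Over all tested genes 21.3% were called higher and 20.7% lower. After pseudogene rows were added 8 small subunit members were higher and 3 lower (median 0.022), and 10 large subunit members were higher and 1 lower (median 0.12). The lowest si-MYLK-AS1 value lay above the highest si-NC value for 27 members and the highest lay below the lowest si-NC value for 5, where 26.1% of all tested genes did each. That share of members was thus above the background only in the upward direction.

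The members called higher with the lowest p-values came from many places in the ribosome. RPS23, which lines the decoding centre of the small subunit, had 540, 533 and 675 CPM in si-MYLK-AS1 libraries and 358, 351 and 390 CPM in si-NC libraries. It averaged 583 ± 79.9 CPM in the knockdown and 366 ± 20.6 CPM in the control (SD, n = 3 each), and its log2 fold change was 0.67 (SE 0.10, edgeR adjusted p = 4.68e-05). Every knockdown library was above every control library. Rows named as its pseudogenes held 40.3% of the reads of gene and pseudogenes together, and with them added the log2 fold change was 0.68. RPL6, on the surface of the large subunit, had 373, 370 and 342 CPM in si-MYLK-AS1 libraries and 218, 220 and 270 CPM in si-NC libraries. Its log2 fold change was 0.62 (SE 0.10, edgeR adjusted p = 7.66e-05), and the groups did not overlap. For RPL6 the pseudogene rows held 73.2% of those reads, and with them added the log2 fold change was 0.50.

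RPL28, a large subunit protein that budding yeast lacks, had 923, 837 and 916 CPM in si-MYLK-AS1 libraries and 572, 511 and 683 CPM in si-NC libraries. The groups were apart, and the log2 fold change was 0.60 (SE 0.10, edgeR adjusted p = 0.000171). Its pseudogene rows held only 3.16% of the reads of gene and pseudogenes together. RPSA, which also serves as the precursor of the laminin receptor, had 273, 278 and 309 CPM in si-MYLK-AS1 libraries and 199, 229 and 227 CPM in si-NC libraries. It was higher by 0.39 on the log2 scale (SE 0.09, edgeR adjusted p = 0.00251), with no overlap. For RPSA the pseudogene rows held 60.4% of those reads, and with them added the log2 fold change was 0.24.

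RPL24, which forms a bridge between the subunits, had 246, 231 and 255 CPM in si-MYLK-AS1 libraries and 196, 192 and 193 CPM in si-NC libraries. The control libraries were close together, and the log2 fold change was 0.33 (SE 0.09, edgeR adjusted p = 0.00476). With its pseudogene rows added the value was 0.19 and no longer passed (adjusted p = 0.0941).

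Among the 12 members named by lowest p, 3 had few reads on their own row and most on pseudogene rows. RPL13A, which can leave the ribosome and silence inflammatory messages in myeloid cells, had 45.6, 45.2 and 37.1 CPM in si-MYLK-AS1 libraries and 24.4, 23.6 and 27.4 CPM in si-NC libraries (log2 fold change 0.77, SE 0.13, edgeR adjusted p = 0.000144). RPL27A, a large subunit protein hydroxylated by RIOX2, had 51.0, 42.8 and 55.4 CPM in si-MYLK-AS1 libraries and 23.6, 30.6 and 31.5 CPM in si-NC libraries (0.79, SE 0.14, adjusted p = 0.000196). RPS3A, near the messenger exit of the small subunit, had 51.5, 49.4 and 66.1 CPM in si-MYLK-AS1 libraries and 35.9, 29.9 and 34.9 CPM in si-NC libraries (0.73, SE 0.13, adjusted p = 0.000295). All 3 were without overlap between the groups. With pseudogene rows added they were still higher, by 0.50, 0.39 and 0.47 on the log2 scale, with adjusted p of 0.0004, 0.00192 and 0.000496.

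**Figure D2:**
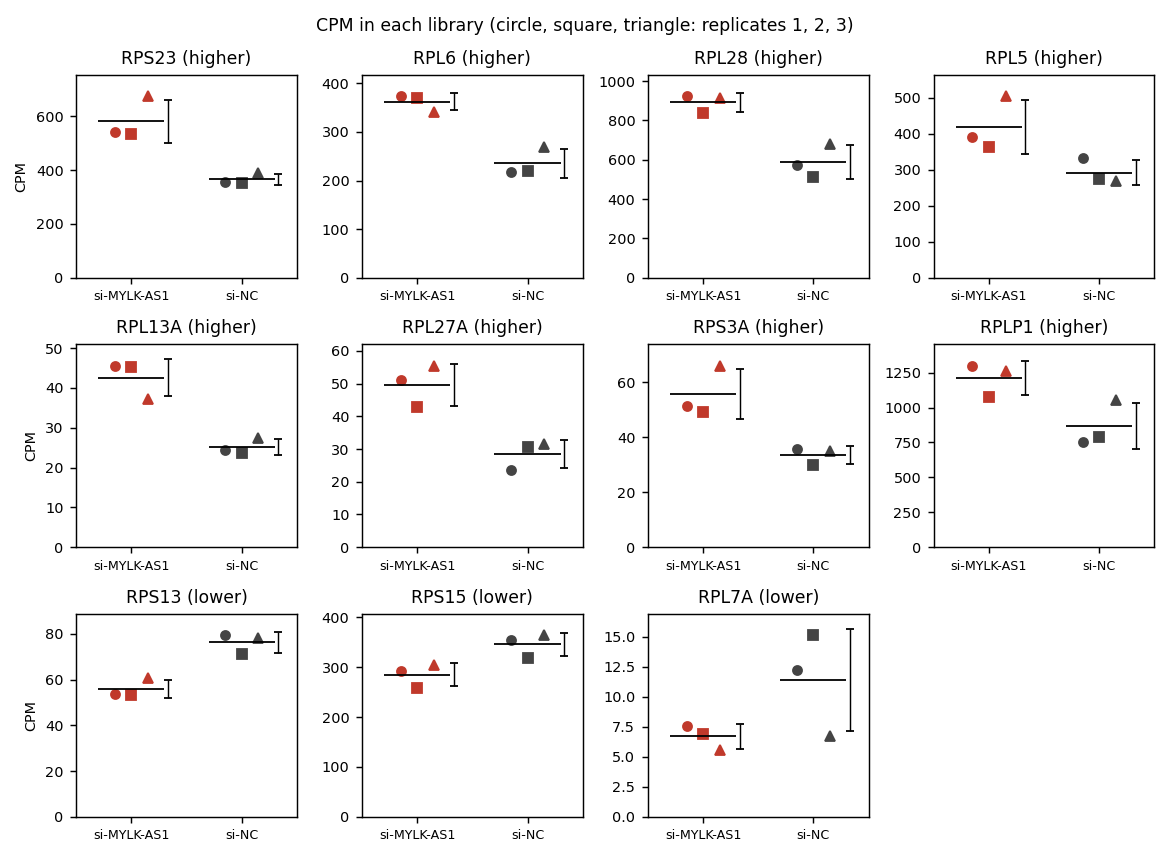
CPM of 11 members in each library, si-MYLK-AS1 left of si-NC; the black line is the mean and the bar beside it the SD (n = 3), and each axis starts at 0. The first 8 members were called higher, with no overlap of the groups, and the last 3 lower, of which RPL7A overlaps.

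Of the 4 members called lower, RPS13, RPS15 and RPL7A are described here. RPS13, a small subunit protein that contacts the ribosomal RNA, had 53.7, 53.2 and 60.6 CPM in si-MYLK-AS1 libraries and 79.3, 71.1 and 78.3 CPM in si-NC libraries. It averaged 55.9 ± 4.13 CPM in the knockdown and 76.3 ± 4.48 CPM in the control (SD, n = 3 each), and the log2 fold change was -0.45 (SE 0.11, edgeR adjusted p = 0.00224). The groups were apart, and of the 4 it alone was called lower in all 16 settings run without pseudogene sums. For RPS13 the pseudogene rows held 60.4% of the reads of gene and pseudogenes together, and with them added the log2 fold change was -0.39. RPS15, in the head of the small subunit, had 293, 259 and 304 CPM in si-MYLK-AS1 libraries and 355, 319 and 364 CPM in si-NC libraries (-0.28, SE 0.09, adjusted p = 0.0224). RPS15 showed no overlap, but without si-MYLK-AS1 replicate 2 the adjusted p was 0.144, without si-NC replicate 1 it was 0.0693, and with pseudogene rows added it was 0.0628.

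RPL7A, of the large subunit, had 7.58, 6.92 and 5.60 CPM in si-MYLK-AS1 libraries and 12.2, 15.1 and 6.77 CPM in si-NC libraries. Its log2 fold change of -0.75 (SE 0.25, edgeR adjusted p = 0.0255) came from rows with few reads and overlapping groups. With pseudogene rows added it became 0.08 (adjusted p = 0.557), so the direction turned. The RPL7A call was also lost without si-MYLK-AS1 replicate 2 (0.0619) or 3 (0.0927) and without si-NC replicate 1 (0.0683) or 2 (0.177).

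The stalk is the flexible arm of the large subunit that recruits elongation factors, built from RPLP0, RPLP1 and RPLP2 beside RPL12. Of its 4 members 1 was higher (25%, beside 21.3% of all tested genes) and none lower, and the median log2 fold change was 0.09. RPLP1 had 1298, 1074 and 1260 CPM in si-MYLK-AS1 libraries and 756, 786 and 1054 CPM in si-NC libraries (log2 fold change 0.48, SE 0.12, edgeR adjusted p = 0.00348). Its partner in the stalk dimers, RPLP2, had 437, 430 and 466 CPM in si-MYLK-AS1 libraries and 343, 366 and 504 CPM in si-NC libraries (0.13, SE 0.12, adjusted p = 0.388). The groups overlapped for RPLP2 because si-NC replicate 3 was the highest library, and without that library its log2 fold change was 0.32 (adjusted p = 0.00519). In that fit 44.7% of all members were called higher, beside 31.6% with all libraries. RPLP0, the base of the stalk, had 1739, 1602 and 1947 CPM in si-MYLK-AS1 libraries and 1714, 1656 and 1770 CPM in si-NC libraries (0.04, SE 0.09, adjusted p = 0.754). RPL12 had 248, 234 and 272 CPM in si-MYLK-AS1 libraries and 281, 296 and 247 CPM in si-NC libraries (-0.13, SE 0.10, adjusted p = 0.302). Whether RPLP1 differed from its stalk partners was not tested.

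The 5S particle holds RPL5, RPL11 and the 5S ribosomal RNA. RPL5 had 391, 362 and 503 CPM in si-MYLK-AS1 libraries and 332, 275 and 269 CPM in si-NC libraries, all knockdown libraries above all controls (log2 fold change 0.52, SE 0.12, edgeR adjusted p = 0.00198). RPL11 had 804, 778 and 798 CPM in si-MYLK-AS1 libraries and 650, 664 and 780 CPM in si-NC libraries (0.18, SE 0.09, adjusted p = 0.12). The RPL11 groups overlapped by 1 library, and without si-NC replicate 3 the adjusted p was 0.012, in a fit where 44.7% of all members were called higher.

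Other groups of members were counted in the same way. Of the 13 measured proteins of the small subunit head 5 were higher and 1 lower (median log2 fold change 0.12), beside 21.3% higher and 20.7% lower over all tested genes. After pseudogene rows were added 3 of the head proteins were higher and none lower, and their median turned to -0.065. A list of 10 for the exit of the peptide tunnel also held RPL24, which forms a bridge between the subunits. Of these 10, 3 were higher, RPL24 among them, and none lower (median 0.22). With pseudogene rows added none of the 10 was called. Of 9 members mutated in Diamond-Blackfan anemia, an inherited failure of red cell production, 3 were higher and none lower (median 0.18), with the same counts after pseudogene rows were added.

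Reads of these genes were spread over pseudogene rows to an unequal extent. The table had 1893 rows named as pseudogenes of the members, of which 1379 had reads. These rows held 1634443 reads over the 6 libraries, beside 2617914 on the members' own rows, or 38.4% of both. The pseudogene share was 0.714% for RPL38 and reached 99.6% for RPL36A, with a median of 33.4%. For 18 members it was over 80%, for 31 between 20% and 80%, and for 27 under 20%.

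**Figure D3:**
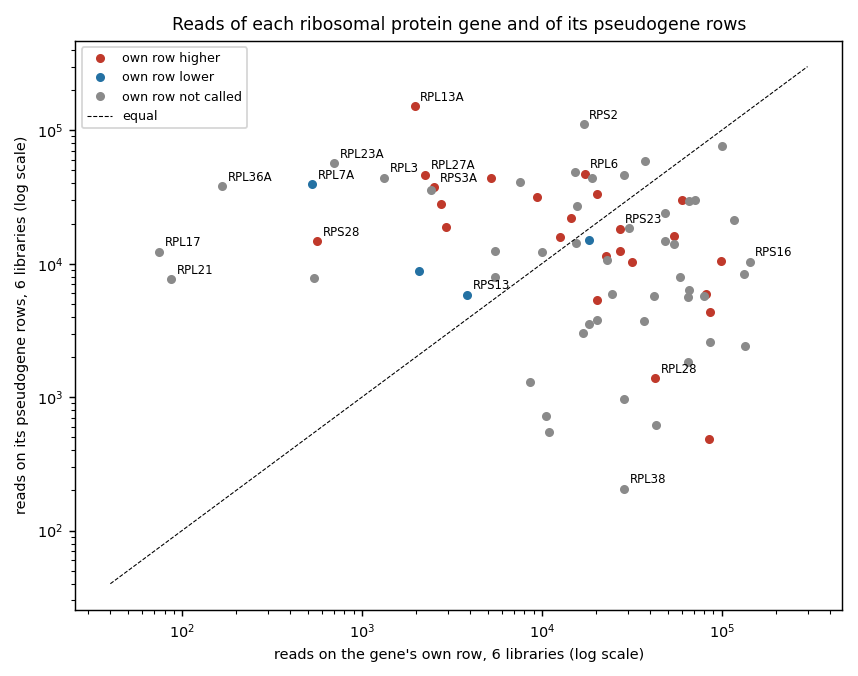
Reads on each member's own row against reads on its pseudogene rows, summed over the 6 libraries, both axes logarithmic, coloured by the call of the own row. Points above the dashed line, such as RPL13A, RPL23A and RPL36A, have more reads on pseudogene rows than on their own, and RPL38 has almost none there.

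The clearest case was RPL13A, where the pseudogene RPL13AP5 alone had 136608 reads and the gene 1965. RPL13AP5 had 2712, 2591 and 3225 CPM in si-MYLK-AS1 libraries and 1875, 1930 and 1984 CPM in si-NC libraries (log2 fold change 0.56, SE 0.10, edgeR adjusted p = 0.000174), apart and in the direction of RPL13A. For RPL23A, which docks targeting factors at the tunnel exit, the pseudogene RPL23AP42 had 46913 reads and the gene 703. For RPL7A the pseudogene RPL7AP6 had 23990 reads and the gene 531. RPL7AP6 had 441, 414 and 427 CPM in si-MYLK-AS1 libraries and 360, 396 and 434 CPM in si-NC libraries (0.11, SE 0.09, adjusted p = 0.365), not in the direction of RPL7A. These pseudogenes were picked after their values were seen, for the number of their reads.

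The sequences of these 3 pairs show how little separates gene and pseudogene over the length of the pseudogene. RPL13A lies at chr19:49487554-49492308 on the plus strand of GRCh38 and RPL13AP5 at chr10:96750288-96750899 on the plus strand. Over the 612 bases of the pseudogene 609 are identical. RPL23A (chr17:28719393-28724359, plus) and RPL23AP42 (chr3:161429127-161429597, minus) share 469 of 471 bases, and RPL7A (chr9:133348214-133351426, plus) and RPL7AP6 (chr14:69885340-69886140, minus) 789 of 801. The messages of RPL13A, RPL23A and RPL7A are longer, at 1181, 1562 and 891 bases. Of their 50-base stretches 40.4%, 24.8% and 66.2% also occur in annotated transcripts of other genes. Below are 60 coding bases of each gene from GENCODE release 29, bases 46 to 105 of RPL13A, 318 to 377 of RPL23A and 330 to 389 of RPL7A, with the matching stretch of the pseudogene. Each is a stretch of that length with the most differences found. Capitals mark the differing bases, which are the only letters here by which a read could be placed.
RPL13A: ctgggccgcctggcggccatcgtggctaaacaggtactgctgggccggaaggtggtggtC
RPL13AP5: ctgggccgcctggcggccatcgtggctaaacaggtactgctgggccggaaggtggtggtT
RPL23A: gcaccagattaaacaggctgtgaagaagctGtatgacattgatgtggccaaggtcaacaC
RPL23AP42: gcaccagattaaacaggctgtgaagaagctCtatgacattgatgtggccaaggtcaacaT
RPL7A: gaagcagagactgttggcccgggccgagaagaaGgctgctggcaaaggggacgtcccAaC
RPL7AP6: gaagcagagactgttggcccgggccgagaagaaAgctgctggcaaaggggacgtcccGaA

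Members with more of their message shared with other transcripts had more reads on pseudogene rows. Across the 76 members the Spearman correlation between the pseudogene share of reads and the share of 50-base stretches of the message found elsewhere among annotated transcripts was 0.69. These values come from the same libraries and annotation and are a description. Own-row level per kilobase of coding length was lower in members with a higher pseudogene share (Spearman correlation -0.83, n = 76). Own-row reads enter both measures, so a negative correlation is partly built in. Own rows ran from 2.24 CPM per coding kilobase (RPL17) to 5568 (RPS16), a ratio of 2481, with a median of 795. With pseudogene rows added the range was 274 (RPL21) to 5967 (RPS16), a ratio of 21.8, with a median of 1830. The ratio of the upper to the lower quartile was 7.78 on own rows and 2.53 with pseudogene rows added. No source used here says how the authors' counting placed reads that match several places, so own-row counts of members with high pseudogene shares are uncertain.

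The changes were smaller once pseudogene rows were added to their gene. Then 18 members were higher and 4 lower, where 21.7% of the 14872 rows tested were higher and 21.1% lower, so the members' 23.7% higher was near the background. Their median log2 fold change was 0.10. Both counts gave the same call for 18 members higher and 2 lower, RPS13 among those lower. The 6 that were higher on their own row only were RPL24, RPL35, RPL31, RPL9, RPS28 and RPS3, and the 2 lower on their own row only were RPS15 and RPL7A. RPL41, the shortest ribosomal protein, and RPS27 were lower only with pseudogene rows added (-0.34, adjusted p = 0.0119 and -0.28, adjusted p = 0.0347). Without si-MYLK-AS1 replicate 1 the count of members higher with pseudogene rows added was 11 (14.5%, beside 20.1% of all genes tested). It was 12 without si-MYLK-AS1 replicate 3 (15.8%, beside 19.3%) and 9 without si-NC replicate 1 (11.8%, beside 17.7%). Without si-NC replicate 2 it was also 9 (11.8%, beside 17%). In these fits the members' share was thus below the background. The share was above it without si-MYLK-AS1 replicate 2 (22.4%, beside 17%) and without si-NC replicate 3 (31 members, 40.8%, beside 19.9%). The count lower was 2 without si-NC replicate 2.

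Calls on own rows were fewest where pseudogenes took few reads. Of the 27 members with a pseudogene share under 20% 5 were higher and none lower, with a median log2 fold change of 0.12, and 18.5% higher was below the 21.3% of all tested genes. Of the 31 members between 20% and 80% 12 were higher and 2 lower (38.7% and 6.45%, median 0.21). Of the 18 members over 80% 7 were higher and 2 lower (median 0.34). The difference between these classes was not tested. Among the pseudogene rows themselves more were lower than higher. Of 519 that could be tested 35 were higher and 91 lower (6.74% and 17.5%), with a median log2 fold change of -0.22. Both shares were below the 21.3% higher and 20.7% lower of all tested genes. Summed, the pseudogene rows took 2.87 ± 0.087% of counts in the knockdown and 2.74 ± 0.159% in the control (SD, n = 3 each).

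The members' level differed between libraries of a group. Their own rows took 4.77%, 4.44% and 4.74% of all counts in si-MYLK-AS1 libraries and 4.09%, 4.19% and 4.71% in si-NC libraries. The mean was 4.65 ± 0.184% in the knockdown and 4.33 ± 0.335% in the control (SD, n = 3 each), a difference of 0.32 percentage points. The groups overlapped because si-NC replicate 3 was as high as the knockdown libraries. That library was the highest of its group for 54 of 76 members, si-NC replicate 1 was the lowest of its group for 45, and si-MYLK-AS1 replicate 2 was the lowest of its group for 49. The median deviation from the si-NC mean was 0.21, 0.08 and 0.24 (log2) in si-MYLK-AS1 libraries and -0.09, -0.05 and 0.11 in si-NC libraries. Thus si-NC replicate 3 lay above si-MYLK-AS1 replicate 2. With pseudogene rows added the family took 7.52 ± 0.268% of counts in the knockdown and 7.07 ± 0.490% in the control.

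**Figure D4:**
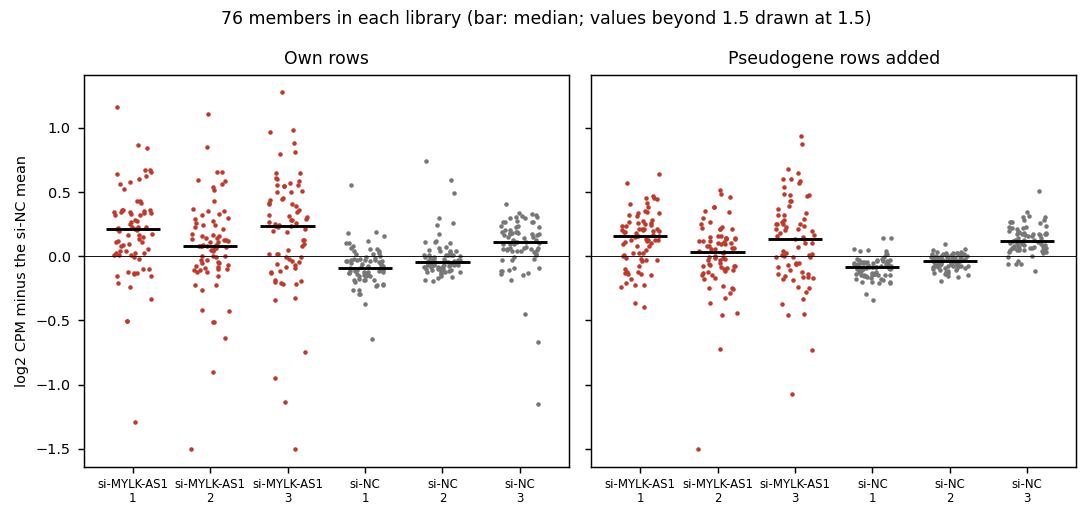
Log2 CPM of the 76 members minus each member's si-NC mean, per library, for own rows (left) and with pseudogene rows added (right); each dot is a member, the bar is the median, and values beyond 1.5 are drawn at 1.5. The own-row medians are 0.21, 0.08 and 0.24 in si-MYLK-AS1 libraries and -0.09, -0.05 and 0.11 in si-NC libraries, with si-NC replicate 3 above si-MYLK-AS1 replicate 2.

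In 7 members the libraries of one group differed by 2-fold or more, and these were picked for that spread. RPL30, a large subunit protein that binds its own pre-mRNA in budding yeast, had 188, 33.5 and 226 CPM in si-MYLK-AS1 libraries and 140, 153 and 154 CPM in si-NC libraries. Its log2 fold change was -0.00 with all libraries (SE 0.73, edgeR adjusted p = 0.998) and 0.47 without si-MYLK-AS1 replicate 2 (adjusted p = 0.00405). RPL37 was also lowest in that library, with 369, 178 and 318 CPM in si-MYLK-AS1 libraries and 302, 321 and 379 CPM in si-NC libraries. RPL23A was low in a control library instead, with 17.3, 12.2 and 18.7 CPM in si-MYLK-AS1 libraries and 11.3, 11.7 and 3.48 CPM in si-NC libraries. RPL41 had 191, 160 and 142 CPM in si-MYLK-AS1 libraries and 105, 195 and 219 CPM in si-NC libraries. None of these 4 was called with all libraries, and in each a single library stood apart. Without si-NC replicate 1 RPL41 was lower (-0.33, adjusted p = 0.0395). The other 3 of the 7 were RPL17, RPL21 and RPL7A.

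At the threshold of the rule lay RPL17, RPL21 and RPS29. RPL17, at the tunnel exit, had a mean of 1.25 CPM and just 13, 10 and 3 reads in si-MYLK-AS1 libraries and 11, 26 and 12 in si-NC libraries. RPL21 had a mean of 1.53 CPM and 7, 18 and 14 reads in si-MYLK-AS1 libraries and 13, 20 and 15 in si-NC libraries. RPS29, a zinc-binding protein of the small subunit head, was left out at 0.0841 CPM, with 1, 0 and 0 reads in si-MYLK-AS1 libraries and 2, 1 and 1 in si-NC libraries. The RPS29 counts are under the floor of 3 reads a library and allow no statement on a change. RPL17 and RPL21 were tested and not called (log2 fold change -0.80 and -0.14, edgeR adjusted p = 0.183 and 0.817), with 99.4% and 98.9% of their reads and pseudogene reads together on pseudogene rows. RPL17 is also part of the readthrough row RPL17-C18orf32, which had 216, 255 and 314 reads in si-MYLK-AS1 libraries and 158, 164 and 186 in si-NC libraries (log2 fold change 0.81, edgeR adjusted p = 0.0137).

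The promoter windows showed the family's start site. RefSeq promoters of GRCh38.p14, from 250 bases before to 50 after a start, were found for 61 of the 76 members. In 46 of the 61 (75.4%) a start was a C followed by a pyrimidine run of at least 5 bases in all, against 5.14% of the 27305 symbols in the table. The windows below show 25 bases before and 20 from the start of some of the members named above, with the pyrimidine run that covers the start in capitals. RPS15, called lower, is shown as one of the 15 members without the run; RPL6, called higher, is another.
RPS23, chr5:82278335-82278379, minus strand: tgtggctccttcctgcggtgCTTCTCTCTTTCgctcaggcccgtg
RPL28, chr19:55385907-55385951, plus strand: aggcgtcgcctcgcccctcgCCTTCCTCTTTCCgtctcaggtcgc
RPL13A, chr19:49487583-49487627, plus strand: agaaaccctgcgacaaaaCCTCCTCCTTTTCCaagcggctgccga
RPL27A, chr11:8682767-8682811, plus strand: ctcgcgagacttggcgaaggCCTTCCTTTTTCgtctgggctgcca
RPS3A, chr4:151099603-151099647, plus strand: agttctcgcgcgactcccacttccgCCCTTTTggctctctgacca
RPL24, chr3:101686699-101686743, minus strand: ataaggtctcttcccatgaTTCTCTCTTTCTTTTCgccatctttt
RPS13, chr11:17077648-17077692, minus strand: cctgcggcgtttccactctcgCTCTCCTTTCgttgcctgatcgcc
RPL7A, chr9:133348193-133348237, plus strand: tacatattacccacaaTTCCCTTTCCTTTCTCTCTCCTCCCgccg
RPS15, chr19:1438371-1438415, plus strand: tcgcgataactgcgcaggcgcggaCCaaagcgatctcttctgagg

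Members with the run were called in both directions. RPL7A and RPS13 were called lower with runs of 16 and 6 bases from the start on, and RPS23, RPL13A and RPL27A were called higher with runs of 7, RPL28 with one of 8. The median log2 fold change was 0.16 for the 46 members with the run and 0.16 for the 15 without. Of the 46 members with it 15 were higher and 2 lower, and of the 15 without it 5 were higher and 1 lower. Among all tested genes 21.3% were called higher and 20.7% lower. The class without the run rests on the cutoff of 5 bases and holds shorter runs, such as the 4 bases of RPL3. These counts and medians thus do not compare messages with and without a TOP tract. Other promoter motifs were counted on both strands of the whole window. CTTTCC was in 49.2% of the 61 members and 30.2% of all symbols, and it can overlap the run at the start. CCGGAAG, the core of ETS sites, was in 36.1% and 12.2%, and ATGGCGG, of YY1 sites, in 21.3% and 6.66%. TATAAA was in 5 of the 61 members and 14.0% of all symbols. These matches are letters in a window and say nothing of binding.

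Ribosomal proteins made as fusions were read together. RPS27A and FAU are made as fusions to ubiquitin or a ubiquitin-like protein. RPS27A had 260, 266 and 243 CPM in si-MYLK-AS1 libraries and 299, 286 and 265 CPM in si-NC libraries (log2 fold change -0.14, SE 0.09, edgeR adjusted p = 0.207). FAU, which carries RPS30, had 335, 296 and 310 CPM in si-MYLK-AS1 libraries and 247, 272 and 309 CPM in si-NC libraries (0.19, adjusted p = 0.135). Neither passed the test.

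Paralogs are second genes for a ribosomal protein. Of 8 listed 5 could be tested, 2 were higher and 1 lower (40% and 20%), beside 21.3% and 20.7% of all tested genes. RPL7L1, a relative of RPL7, had 112, 119 and 140 CPM in si-MYLK-AS1 libraries and 78.8, 80.1 and 64.6 CPM in si-NC libraries (log2 fold change 0.73, edgeR adjusted p = 5.45e-05). RPL7 itself had 105, 86.2 and 119 CPM in si-MYLK-AS1 libraries and 84.8, 68.6 and 81.7 CPM in si-NC libraries (0.40, adjusted p = 0.0124). RPL36AL, nearly the same protein as RPL36A, had 9.41, 9.54 and 9.83 CPM in si-MYLK-AS1 libraries and 5.34, 4.82 and 6.68 CPM in si-NC libraries (0.77, adjusted p = 0.00554). RPL36A was at 3.47, 3.25 and 3.41 CPM in si-MYLK-AS1 libraries and 2.22, 2.89 and 2.20 CPM in si-NC libraries (0.47, adjusted p = 0.213), and both rows are uncertain because they share sequence. RPS27L was lower, with 144, 160 and 162 CPM in si-MYLK-AS1 libraries and 201, 207 and 206 CPM in si-NC libraries (-0.40, adjusted p = 0.00162). Its partner RPS27 was at 43.4, 44.8 and 35.5 CPM in si-MYLK-AS1 libraries and 35.1, 39.1 and 50.4 CPM in si-NC libraries (-0.01, adjusted p = 0.958). For RPS27 the pseudogene rows held 93.7% of the reads of both, and with them added it was lower (-0.28, adjusted p = 0.0347). RPL26L1 and RPL22L1 did not pass (0.73 and 0.19, adjusted p = 0.192 and 0.271), beside RPL26 at 0.21 (0.066) and RPL22 at -0.13 (0.301). RPL3L, RPL10L and RPL39L had at most 3 reads a library.

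Genes that share the TOP tract without coding ribosomal proteins were counted next. Of 20 such messages, mostly translation factors, 10 were higher and 2 lower (50% and 10%), with a median log2 fold change of 0.26. Pseudogene rows were summed for the members only, so these counts and those of the other lists are of own rows. On own rows 31.6% of the members were higher, and 23.7% with pseudogene rows added. Over all tested genes 21.3% were called higher and 20.7% lower. NPM1, a nucleolar chaperone, had 559, 530 and 640 CPM in si-MYLK-AS1 libraries and 424, 423 and 434 CPM in si-NC libraries (0.43, edgeR adjusted p = 0.00108). The initiation factor genes EIF2S3 and EIF3H were higher by 0.43 each (adjusted p = 0.00189 and 0.00298), and EIF4A2 was lower (-0.63, adjusted p = 0.000452). RNAs that host small nucleolar RNAs also start with a TOP tract but code for no protein. Of 8 of them none was higher and 4 (50%) were lower, with a median of -0.23. Their lowest p was that of GAS5, at 90.6, 83.3 and 85.9 CPM in si-MYLK-AS1 libraries and 137, 127 and 149 CPM in si-NC libraries (-0.67, adjusted p = 2.86e-05). SNHG1, SNHG8 and ZFAS1 were lower by smaller amounts (-0.48, -0.48 and -0.30), and each call was lost with any one of 2 to 4 libraries left out. The difference between coding and host RNAs was not tested.

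**Figure D5:**
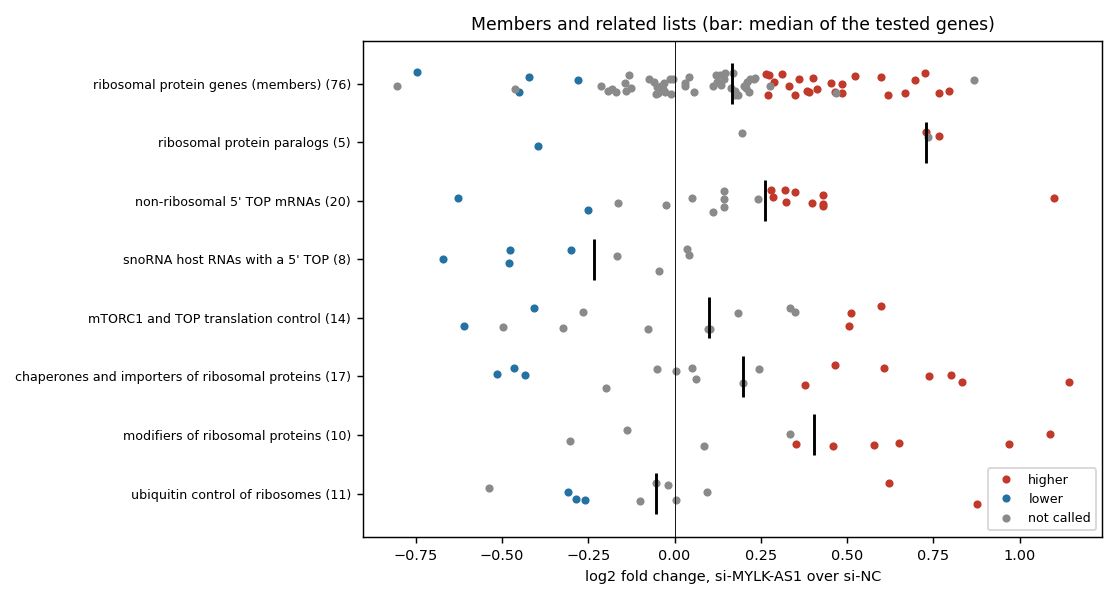
Log2 fold change of the tested genes of the members and of 7 related lists, si-MYLK-AS1 over si-NC, coloured by call; the bar is the list's median and the number in parentheses the genes tested. The medians run from -0.23 for the snoRNA host RNAs to 0.73 for the 5 tested paralogs, beside 0.17 for the members.

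Genes that make, carry and mark ribosomal proteins were read last, and their lists were chosen with results of these data known. Of 17 chaperones and importers 7 were higher and 3 lower (41.2% and 17.6%, median log2 fold change 0.20), beside 21.3% and 20.7% of all tested genes. RRS1, which brings the 5S particle into the precursor ribosome, had 56.3, 52.9 and 49.6 CPM in si-MYLK-AS1 libraries and 23.5, 21.7 and 26.8 CPM in si-NC libraries (1.14, SE 0.13, edgeR adjusted p = 1.56e-06). GRWD1, the chaperone of RPL3, was higher by 0.61 (adjusted p = 0.000197), the import receptor TNPO1 by 0.74 (0.000311) and HEATR3, which carries RPL5, by 0.80 (0.000692). Of 10 enzymes and modifiers that act on ribosomal proteins 6 (60%) were higher and none lower (median 0.41). UFM1, the small modifier attached to RPL26, had 33.4, 38.7 and 53.1 CPM in si-MYLK-AS1 libraries and 18.2, 20.8 and 19.4 CPM in si-NC libraries (1.09, SE 0.16, adjusted p = 3.15e-05). PRMT3, which methylates RPS2, was higher by 0.58 (0.00263), METTL18, which methylates RPL3, by 0.97 (0.00467), and RIOX1, which hydroxylates RPL8 and is listed under an older symbol, by 0.65 (0.00207). On their own rows RPL3, RPL8, RPL26 and RPS2 themselves were not called, at 0.16, 0.23, 0.21 and 0.06. Pseudogene rows held 97.1% of the reads of gene and pseudogenes together for RPL3 and 86.6% for RPS2. With pseudogene rows added the values of RPL3, RPL8, RPL26 and RPS2 were -0.18, 0.22, 0.20 and 0.02, again not called.

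Of 11 genes of ubiquitin control of ribosomes 2 were higher and 3 lower (18.2% and 27.3%, median log2 fold change -0.05). Over all tested genes 21.3% were called higher and 20.7% lower. RNF14 and RNF25, ligases that act at blocked ribosomes, were higher by 0.87 and 0.62 (edgeR adjusted p = 9.24e-06 and 0.00139). HUWE1, which degrades unassembled ribosomal proteins, was lower (-0.31, adjusted p = 0.0159), as was RNF10, which marks RPS3 (-0.26, adjusted p = 0.0254); the HUWE1 call was lost with any one of 3 libraries left out and the RNF10 call with any one of 4. Of 14 tested genes of mTORC1 and TOP control 3 were higher and 2 lower (21.4% and 14.3%, median 0.10). The share higher was near the 21.3% of all tested genes, and the share lower was below their 20.7%. EIF4EBP1 and EIF4EBP2, which mTORC1 phosphorylates to release translation, were higher by 0.60 and 0.50 (adjusted p = 8.12e-05 and 0.00124). Of the genes that hold mTORC1 back, DDIT4 and TSC2 were lower (-0.61 and -0.41, adjusted p = 0.000584 and 0.00522) and SESN2, named after its values were seen, was higher (0.51, adjusted p = 0.00608). LARP1, which binds the TOP tract, had at most 4 reads a library and was not tested. RNA levels do not measure how these messages were translated.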

How the data were processed

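Trizol-extracted total RNA was sequenced as Ion Proton libraries, per the labels' protocols. The authors deposited raw read counts per gene symbol, on GRCh38 per the submitters' processing notes; no source used here gives the aligner, the counter, its handling of reads with several matches, the annotation release or the strand setting. Of the 54261 rows 25004 had no reads. Differential expression was tested on the counts with edgeR 4.0.16 in R 4.3.3 (filterByExpr, TMM factors, robust quasi-likelihood F test, two-sided, Benjamini-Hochberg over 15391 genes, threshold 0.05). CPM use the TMM-adjusted library size. The SE is the log2 fold change divided by the square root of F. In a second fit the rows named as pseudogenes of a member were summed into it. The fits were tested on simulated counts.

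Libraries of a group differed by more than sampling noise (chi-square per degree of freedom 2.27 to 9.21), and a count floor of 3 was 0.271 to 0.397 CPM. The common biological coefficient of variation was 11.85%. Pseudogene identity came from GENCODE release 29 and promoters from RefSeq GRCh38.p14. Of the list symbols 4 were matched through an older symbol. The members and lists were chosen with earlier results of these data known. Members were named by a rule (the 12 with the lowest p in each direction, those at the rule's threshold, the stalk, the 5S particle, the fused genes and paralogs, and up to 4 genes of each other list by lowest p), and others are said to be chosen for their values. DESeq2 1.42.0 and limma-voom (limma 3.58.1) were alternatives. The deposited table held no column outside the 6 libraries. Some genes are not reported here.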

Additional observations from a re-analysis of the deposited data

How the results depend on the processing

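The median log2 fold change of the members stayed above 0 in all alternatives run, between 0.039 and 0.22 with each library left out and with or without pseudogene rows. With each library left out the members called higher numbered 13 to 34 and lower 1 to 4, and with pseudogene rows added 9 to 31 and 2 to 5. The share higher was 17.1% to 44.7% of members in these fits, beside 16.8% to 20.1% of all genes tested. With pseudogene rows added it was 11.8% to 40.8%, beside 17% to 20.1%. At an adjusted p of 0.01, 15 were higher and 1 lower, and at 0.1, 30 and 4. Under the other factors, filters and tools 22 to 27 were higher and 3 to 5 lower. With the replicate number as a block 26 were higher and 3 lower, and the numbers share no source in the labels (correlations of same-numbered deviations -0.0485 to 0.0665). With pseudogene rows added the log2 fold changes of RPL17, RPL21 and RPL7A reversed to 0.16, 0.12 and 0.077. Those of RPS28 and RPS3, called higher on own rows, turned from 0.70 and 0.45 to -0.065 and -0.12. Other members that were not called, such as RPL3 and RPL39, also changed sign. With single libraries left out RPL21 ranged from -0.40 to 0.26, RPLP0 from -0.029 to 0.11 and CDKN1A from -0.060 to 0.13. CDKN1A also reversed with upper quartile factors (-0.0099), without factors (-0.011) and with a filter of 5 CPM (-0.016). Of the genes named here for a change of sign, RPL7A, RPS28 and RPS3 had passed the test on own rows. The members' share of counts was higher in the knockdown by 0.20 to 0.51 percentage points with each library left out. The cause of these changes was not tested. Own rows with few reads, such as those of RPL17, RPL21 and RPS29, limit the precision of their values.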
